A study of Homo sapiens with 6 samples.

Results

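To examine how retinoic acid signaling genes were expressed when SNAI1 was deleted, 10 genes that make, break down, bind or sense retinoic acid were followed in H1 human embryonic stem cells at day 2 of hematopoietic differentiation. The genes were chosen by their known roles, but with earlier results of these data known, so counts over them describe these genes only. They are ALDH1A2, ALDH1A3, RDH10, DHRS3, CYP26A1, CYP26B1, CRABP1, CRABP2, RARB and RARG, and all 10 were among the 37803 gene symbols listed once in both deposited tables. SNAI1 is a zinc-finger transcription factor, mostly a repressor, that acts when cells leave an epithelial state. The samples were wild-type H1 cells (WT, n = 2) and SNAI1-deleted H1 cells, split by the leading number in their titles into SNAI1_KO_1 and SNAI1_KO_2 (n = 2 each). The study describes a pair of lines for each gene deleted, made by frameshift mutation, but the labels do not say whether the leading number marks the line, nor whether samples of a group were separate cultures, so p-values measure only the spread between these samples, which may be technical. All 3 groups received activin A and BMP4 for 2 days. The labels put activin A at 40 ng/ml with BMP4 at 50 ng/ml in the medium, while the methods of the study swap these amounts between the factors.

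Retinoic acid is made from vitamin A (retinol) in 2 oxidation steps. RDH10 oxidises retinol to retinal, DHRS3 reduces retinal back to retinol, and ALDH1A2 and ALDH1A3 oxidise retinal to retinoic acid. CYP26A1 and CYP26B1 are cytochrome P450 enzymes that inactivate retinoic acid. CRABP1 and CRABP2 bind it in the cytoplasm, where CRABP2 is known to carry it to the nuclear receptors and CRABP1 is often linked to its breakdown. RARB and RARG are retinoic acid receptors, which bind DNA together with RXR partners. In the early embryo, ALDH1A2 is the main source of retinoic acid in mesoderm, CYP26A1 protects the primitive streak and the tail end from it, and CYP26A1, RARB and DHRS3 are known to be induced by retinoic acid itself.

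Values are FPKM, that is fragments scaled to transcript length and to the mapped fragments of the library, so the levels of different genes can be set side by side within a library. Each of the 2 tables holds 1 library of every group, and the tables differ in their number of gene rows (38100 and 58324). Knockout libraries were therefore compared with the WT library of the same table. FPKM summed to between 603399 and 633851 per library, and the absolute depth behind them is not known. The knockout libraries had an estimated depth of 0.877 to 1.11 times that of WT in their table. SNAI1 itself was at 37.1 and 36.4 FPKM in WT, at 51.6 and 47.8 in the libraries labelled SNAI1_KO_1 and at 68.6 and 55.0 in those labelled SNAI1_KO_2 (first and second table), a log2 difference of 0.58 ± 0.074 (SE; limma, p adjusted over all genes tested = 0.00461, or 0.0761 without a term for the table in the model and 0.0522 without WT of the first table). Since a frameshift can leave the mRNA in place, the level is no check of the labels, and directions are those of the libraries as labelled.

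Retinoic acid receptors with RXR bind direct repeats of a 6-base sequence, and SNAI1 is known to bind the E-box CACCTG, read CAGGTG on the opposite strand, so the start-site regions of the genes were searched for both. The windows run from 250 bases before to 50 after each start in RefSeq (GRCh38.p14). They were found for 9 of the 10 genes, all but RDH10, in 16 windows. The search used the consensus hexamer AGGTCA, the variant AGTTCA, the further variant GGTTCA and the further variant GGGTCA, read on both strands, alone or repeated in the same direction with a spacer of 5, 2 or 1 bases. The repeat with spacer 5 was in 0.0883% of the 35116 windows in the table and in 2 of the 16 windows of these genes, 1 of CYP26A1 and 1 of RARB. They are shown 5′ to 3′ on the strand of the gene, because both genes are textbook targets of the receptors, with both hexamers and the spacer between them in capitals.
CYP26A1, chr10:93073797-93073825 (plus strand): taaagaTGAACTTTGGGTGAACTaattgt
RARB, chr3:25428204-25428232 (plus strand): gggtagGGTTCACCGAAAGTTCActcgca
The CYP26A1 repeat reads on the opposite strand and lies at -90 to -74 relative to the start of its window's transcript. In GENCODE 29, the same bases are in the 5′ untranslated part of 1 other CYP26A1 transcript, which starts upstream. The RARB repeat lies at -53 to -37 relative to its start, inside an intron of 1 longer RARB transcript. No window of the 10 genes held a repeat with spacer 2 or spacer 1, which were in 0.0399% and 0.131% of all windows.

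Single hexamers were in 8 of the 16 windows, against 38.6% of all windows, and in 5 of the 9 genes, against 43.7% of all genes with a window. The E-box was in 7 of the 16, against 20.6% of all windows. Those 7 belong to 5 of the 9 genes, CYP26A1, ALDH1A2, DHRS3, CRABP2 and RARB, against 24.1% of all genes with a window. CYP26A1 and ALDH1A2 each held it in more than 1 window. The E-boxes of DHRS3 and CRABP2 are shown because these genes had the highest and the lowest estimate among the 7 genes that averaged 1 FPKM or more in the comparisons that follow, with the E-box in capitals.
DHRS3, chr1:12596820-12596849 (minus strand): ccaggccccctgCACCTGaggcttctgacc
CRABP2, chr1:156705953-156705982 (minus strand): gggtggggtcgcCAGGTGtccggcaccaag
The DHRS3 E-box lies at -224 to -219 relative to an internal start of the gene, in an intron of its longer transcripts, and the CRABP2 E-box lies at -186 to -181. CYP26B1, ALDH1A3, CRABP1 and RARG held neither the E-box nor a hexamer in these windows. A match describes the letters of the window only.

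The levels of the 10 genes covered a wide range. CYP26A1 was the most abundant by the mean over the 6 libraries (245.4 FPKM), followed by CRABP2 (159.3), CRABP1 (97.7), RARG (19.98), ALDH1A3 (3.78), RDH10 (3.17), DHRS3 (1.84), CYP26B1 (0.544), ALDH1A2 (0.322) and RARB (0.179). Neighbours in this order were not always apart. The libraries of ALDH1A3 and RDH10 overlapped, as did those of DHRS3 with each of its neighbours, those of CYP26B1 with ALDH1A2 and those of ALDH1A2 with RARB. CRABP2 overlapped with both CYP26A1 and CRABP1, while RARG stood apart from both of its neighbours in every library. The order of the means pools WT and knockout libraries and does not hold in each group. In WT, CYP26B1 (1.13 and 1.27 FPKM) was above DHRS3 (0.260 and 0.308).

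**Figure D1:**
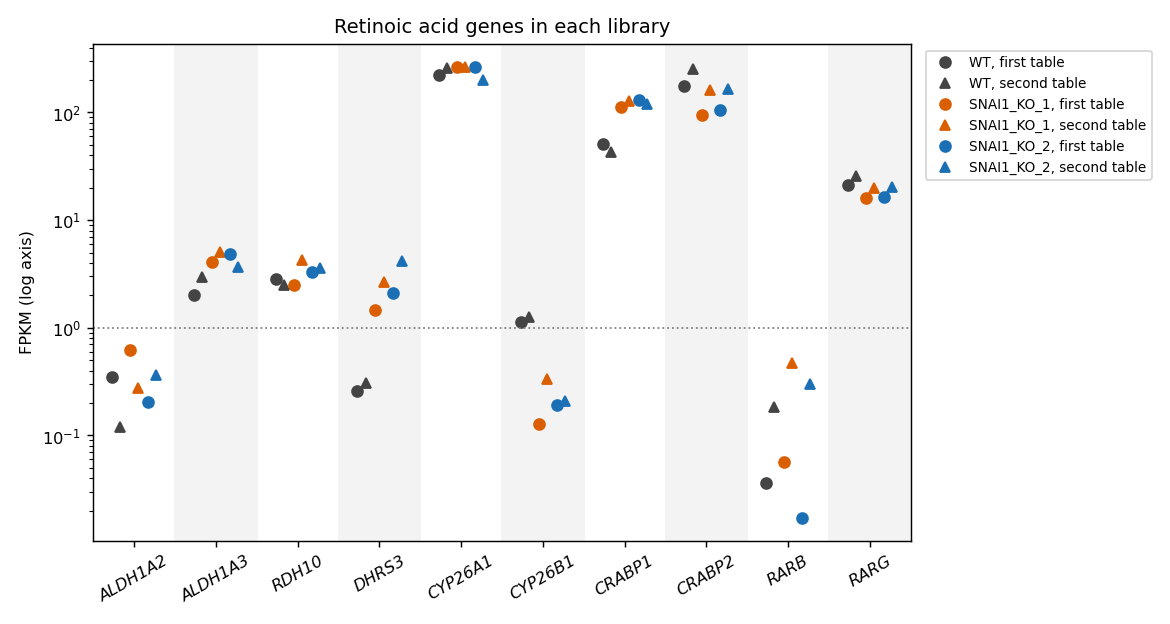
FPKM of the 10 genes (log axis) in each of the 6 libraries, with circles for the first table and triangles for the second, and a dotted line at an FPKM of 1. CYP26A1, CRABP1 and CRABP2 lay above 43 FPKM in all libraries, while ALDH1A2 and RARB stayed below 1.

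To test the genes, those that averaged 1 FPKM or more across the 6 libraries were fitted with limma on log2(FPKM + 1) with a term for each group and for the table, a scale on which changes of low genes are understated. This was the case for 7 of the 10 genes and for 13909 genes in all. DHRS3 reached the mean of 1 only through the knockout groups, so it could not have been tested without being higher there, and it is given by its values and left out of the counts. Of the other 6 genes, with both knockout groups set against WT, 2 were higher (CRABP1 and ALDH1A3) and 2 were lower (CRABP2 and RARG) at an adjusted p under 0.05. CYP26A1 and RDH10 did not pass the test. Over all genes tested, 15.8% were higher and 15.4% were lower at this threshold. These include genes that, like DHRS3, had a mean of 1 or more in WT or in the knockout libraries only. Without such genes, 1843 of 13031 were higher and 2047 were lower. The median log2 difference was 0.14 over the 6 genes, -0.05 over all genes and -0.06 over those 13031. ALDH1A2, CYP26B1 and RARB were below this mean and are also given by their values. Without the term for the table, 1 of the genes passed (CRABP1), and 2 passed without WT of the first table, without WT of the second or without SNAI1_KO_1 of the first. With no filter, 1 passed (RARG).

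Among the enzymes that make retinoic acid, ALDH1A3 was higher in the knockout libraries and RDH10 and ALDH1A2 overlapped with WT. ALDH1A3 had 2.01 FPKM in WT against 4.07 in SNAI1_KO_1 and 4.88 in SNAI1_KO_2 in the first table, with 2.95, 5.11 and 3.68 in the second. All 4 knockout libraries were above both WT libraries, by 2.03-fold, 2.43-fold, 1.73-fold and 1.25-fold within their tables. The log2 difference was 0.65 ± 0.18 (SE; 95% interval 0.20 to 1.10), with an adjusted p of 0.0444. This call was near the threshold. The adjusted p was 0.0654 in SNAI1_KO_1 alone and 0.0868 in SNAI1_KO_2 alone, and 0.141 without the term for the table. It was 0.283 without WT of the first table and 0.0989 without WT of the second, 0.0979 and 0.134 without SNAI1_KO_1 of the first and the second table, and 0.0763 without SNAI1_KO_2 of the first, while it was 0.027 without SNAI1_KO_2 of the second.

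RDH10, which supplies the retinal, was at 2.86, 2.50 and 3.29 FPKM in WT, SNAI1_KO_1 and SNAI1_KO_2 of the first table and at 2.52, 4.22 and 3.63 in the second. The SNAI1_KO_1 library was below WT in the first table and above it in the second. Its log2 difference was 0.24 ± 0.17 (95% interval -0.19 to 0.68), with an adjusted p of 0.334. ALDH1A2 was at 0.348, 0.619 and 0.206 FPKM in the first table and at 0.119, 0.275 and 0.368 in the second. The groups overlapped, and 3 of the 4 knockout libraries were above the WT library of their table. ALDH1A3 took between 38.5% and 58.3% of the summed FPKM of ALDH1A2, ALDH1A3 and RDH10, and ALDH1A2 between 2.12% and 8.60%, with overlap between the groups for both.

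DHRS3, which acts against RDH10, was higher in all knockout libraries than in WT. It had 0.260 FPKM in WT against 1.46 in SNAI1_KO_1 and 2.09 in SNAI1_KO_2 in the first table, with 0.308, 2.69 and 4.22 in the second. Both WT libraries were below 1 FPKM and all 4 knockout libraries were above it. The ratios to WT were 5.63, 8.05, 8.73 and 13.7. On the log2(FPKM + 1) scale the difference was 1.44 ± 0.19 (SE), with 1.23 in SNAI1_KO_1 and 1.65 in SNAI1_KO_2, close to that of CRABP1 given later. Its size rests on the pseudocount, since it was 2.72 with a pseudocount of 0.1 and 0.29 with 10. In fits with no filter, which DHRS3 enters whatever its level, the adjusted p was 0.113, or 0.0523 with symbols at 0 in all libraries left out. SNAI1_KO_2 was above SNAI1_KO_1 in both tables, but the difference of 0.41 had a 95% interval of -0.14 to 0.97. The ratio of DHRS3 to RDH10 within a library, a pair chosen after its values were seen, was 0.0908 and 0.122 in WT and between 0.584 and 1.16 in the knockout libraries.

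The 2 breakdown enzymes were far apart in level and differed in pattern. CYP26A1 had 221 FPKM in WT against 265 in SNAI1_KO_1 and 262 in SNAI1_KO_2 in the first table, with 259, 267 and 198 in the second, above at least 97.0% of the genes tested in each library. The groups overlapped, with the lowest value in a knockout library of the second table. Its log2 difference was 0.04 ± 0.12 (95% interval -0.28 to 0.36), with an adjusted p of 0.83. The difference was -0.17 without WT of the first table and -0.09 without SNAI1_KO_2 of the first table, with adjusted p of 0.445 and 0.416. In GENCODE 29, 750 exon bases of CYP26A1 are shared with AL358613.3 on the same strand, and their reads could not be told apart here.

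In WT, CYP26B1 was at 1.13 FPKM in the first table and 1.27 in the second. It was at 0.127 and 0.333 in SNAI1_KO_1 and at 0.192 and 0.210 in SNAI1_KO_2. The WT libraries were thus above all 4 knockout libraries, by 8.89-fold and 3.81-fold over SNAI1_KO_1 and by 5.90-fold and 6.06-fold over SNAI1_KO_2. Its mean was below the filter, so it was not in the fit used for the other genes. In fits with no filter, its log2 difference was -0.86, with an adjusted p of 0.0736 over all symbols and of 0.032 with symbols at 0 in all libraries left out, a choice made after seeing the data. In the latter it was 0.0518 in SNAI1_KO_1 and 0.0474 in SNAI1_KO_2. CYP26B1 made up 0.509% and 0.487% of the summed FPKM of both enzymes in WT and between 0.0479% and 0.124% in the knockout libraries. CYP26C1, the remaining enzyme of the family, was also below the filter, with a mean of 0.226 FPKM.

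The cytoplasmic binding proteins moved in opposite directions. CRABP1 had 50.5 FPKM in WT against 113 in SNAI1_KO_1 and 130.3 in SNAI1_KO_2 in the first table, with 43.1, 128 and 120.4 in the second. All 4 knockout libraries were above both WT libraries, by between 2.25-fold and 2.98-fold. The log2 difference was 1.38 ± 0.089 (95% interval 1.15 to 1.60), with an adjusted p of 6e-04, and it was 1.35 in SNAI1_KO_1 (adjusted p = 0.00142) and 1.41 in SNAI1_KO_2 (adjusted p = 0.00113).

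CRABP2 had 175 FPKM in WT against 94.9 in SNAI1_KO_1 and 104.7 in SNAI1_KO_2 in the first table, with 253, 162 and 166 in the second. Every group was higher in the second table than in the first, by between 1.45-fold and 1.71-fold. WT was above the knockout libraries of its table by 1.84-fold and 1.67-fold in the first table and by 1.55-fold and 1.52-fold in the second, and the lower WT library still exceeded the highest knockout library. The log2 difference was -0.71 ± 0.060 (95% interval -0.86 to -0.56), with an adjusted p of 0.00122, and it was -0.75 in SNAI1_KO_1 (adjusted p = 0.00233) and -0.67 in SNAI1_KO_2 (adjusted p = 0.00293). Without the term for the table, the adjusted p was 0.289.

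The balance between the 2 binding proteins therefore shifted, while their sum showed no such split. The summed FPKM of CRABP1 and CRABP2 was 225, 208 and 235 in WT, SNAI1_KO_1 and SNAI1_KO_2 of the first table, with 296, 291 and 287 in the second. CRABP1 took 22.4% and 14.6% of it in WT, 54.4% and 44.1% in SNAI1_KO_1, and 55.5% and 42.0% in SNAI1_KO_2. The ratio of CRABP2 to CRABP1 was 3.46 in WT, 0.837 in SNAI1_KO_1 and 0.803 in SNAI1_KO_2 in the first table, with 5.86, 1.27 and 1.38 in the second. CRABP2 was the more abundant of the 2 in both WT libraries, whereas CRABP1 was the more abundant in the knockout libraries of the first table only. The log2 ratio of SNAI1_KO_1 and SNAI1_KO_2 differed from WT by -2.05 and -2.11 in the first table and by -2.21 and -2.09 in the second.

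**Figure D2:**
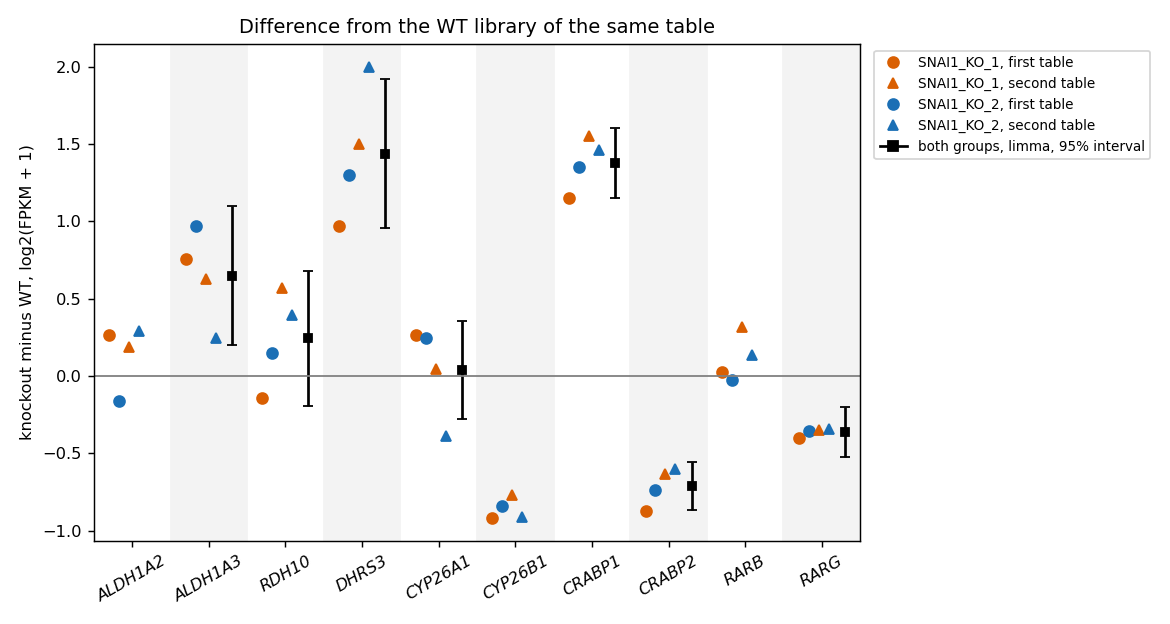
Difference of each knockout library from the WT library of its table on the log2(FPKM + 1) scale for the 10 genes, with circles for the first table and triangles for the second. Black squares give the limma estimate over both knockout groups with its 95% interval for the 7 genes that averaged 1 FPKM or more, from 1.44 for DHRS3 to -0.71 for CRABP2.

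Of the receptors, RARG fell and RARB was close to the lower limit of the data. RARG had 21.4 FPKM in WT against 16.0 in SNAI1_KO_1 and 16.5 in SNAI1_KO_2 in the first table, with 25.8, 20.03 and 20.1 in the second. Both WT libraries were above all knockout libraries, by between 1.28-fold and 1.34-fold within a table. The log2 difference was -0.36 ± 0.064 (95% interval -0.52 to -0.20), with an adjusted p of 0.0118, and it was -0.37 in SNAI1_KO_1 (adjusted p = 0.021) and -0.35 in SNAI1_KO_2 (adjusted p = 0.0239). Without the term for the table, the adjusted p was 0.326. It was also above 0.05 without WT of the first table (0.0889), WT of the second (0.0802), SNAI1_KO_1 of the first (0.0531) or SNAI1_KO_2 of the second (0.0506).

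RARB was at 0.0362, 0.0563 and 0.0170 FPKM in WT, SNAI1_KO_1 and SNAI1_KO_2 of the first table and at 0.185, 0.475 and 0.303 in the second. The tables differed more than the groups did, by between 5.10-fold and 17.8-fold for the same group. In GENCODE 29, 28 exon bases of RARB are shared with TOP2B, a gene on the opposite strand at 26.5 to 38.7 FPKM, and the strand setting of the counting is not given in the sources used here, so the low RARB values are uncertain. The genes that share exon bases with ALDH1A2, ALDH1A3, RDH10 and CRABP1 were at 0.231 FPKM or less.

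For a further 2 pairs of genes, the ratio within a library overlapped between WT and the knockout groups. The ratio of RARG to RARB was 591, 284 and 971 in the first table, with 140, 42.2 and 66.5 in the second, and the ratio of CYP26A1 to ALDH1A2 was 635, 428 and 1270 in the first and 2190, 972 and 539 in the second. For both, SNAI1_KO_2 was above WT in the first table and below WT in the second. The ratio of CYP26A1 to ALDH1A3, a pair chosen after its values were seen, was 110 and 87.9 in WT and between 52.2 and 65.1 in the knockout libraries, with no overlap. That of CYP26A1 to CYP26B1, also chosen after its values were seen, was 195 and 204 in WT and between 802 and 2090 in the knockout libraries.

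**Figure D3:**
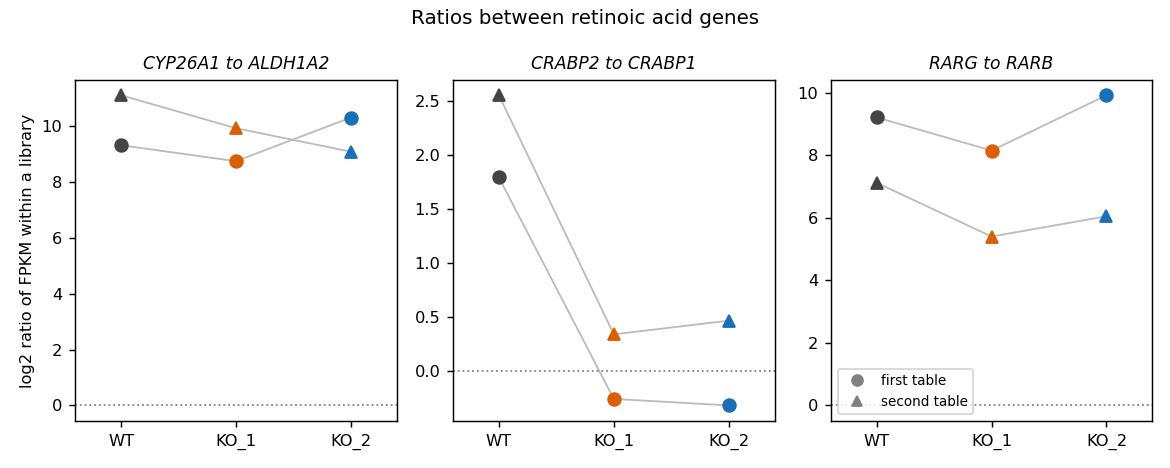
Log2 ratio of FPKM within a library for CYP26A1 to ALDH1A2, CRABP2 to CRABP1 and RARG to RARB, by group, with circles for the first table, triangles for the second, grey lines joining libraries of a table and a dotted line at equal levels. The panels have their own scales, and of the 3 pairs shown WT and knockout libraries are apart for CRABP2 to CRABP1.

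When each knockout group was compared with WT alone, 3 of the 6 genes other than DHRS3 passed in SNAI1_KO_1, against 23.9% of all genes, and 3 passed in SNAI1_KO_2, against 25.5%. Of the 13031 genes that did not reach the filter through 1 side only, 2954 passed in SNAI1_KO_1 and 3164 in SNAI1_KO_2. In each group the 3 that passed were CRABP1, CRABP2 and RARG. Both comparisons use the same WT libraries. To ask whether the knockout groups differed from each other, SNAI1_KO_2 was compared with SNAI1_KO_1. None of the 7 genes tested, here with DHRS3, passed (0), and 0 had an unadjusted p under 0.05. Over all genes 0% passed by limma, and 521 of 13909 had an unadjusted p under 0.05. The interval of this difference was -0.21 to 0.31 for CRABP1, -0.09 to 0.26 for CRABP2 and -0.16 to 0.21 for RARG.

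Next, the other genes of the pathway were examined by role, in lists of 66 symbols, among them older and newer symbols of 2 genes. Of these, 60 were in both tables and 28 were tested. The test called 2 genes higher (7.14%) and 8 lower (28.6%), beside 15.8% and 15.4% over all genes, and the median log2 difference was -0.17. Without the term for the table, 1 was higher and 0 lower, and with any 1 of the 6 libraries left out 1 to 5 were lower. With each knockout group set against WT alone, 5 of the 28 passed in SNAI1_KO_1 and 9 in SNAI1_KO_2, against 23.9% and 25.5% of all genes. The lists were written with earlier results of these data known, so these shares describe the lists only. Genes named with a log2 difference under 0.5 in size were chosen after their values were seen.

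In uptake and storage, 3 of 8 listed genes were tested. STRA6, the membrane receptor through which retinol enters cells, was lower, a log2 difference of -0.58 ± 0.16 (adjusted p = 0.0438). It passed in neither knockout group alone (adjusted p = 0.0946 in SNAI1_KO_1 and 0.0594 in SNAI1_KO_2). Its values were 11.3, 7.79 and 9.13 FPKM in WT, SNAI1_KO_1 and SNAI1_KO_2 of the first table, with 21.6, 14.3 and 10.6 in the second, so WT was the highest library of each table, while the groups overlapped across tables. DGAT1, an acyltransferase that can esterify retinol, was also lower (-0.49, adjusted p = 0.0126), and LRAT did not pass. Of 6 genes tested for oxidation and reduction of retinol or retinal, DHRS4 was lower and 5 did not pass.

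Of the 6 other carriers and receptors, 2 were lower. RXRA, a partner of the retinoic acid receptors, had 17.1 FPKM in WT against 13.2 in SNAI1_KO_1 and 11.8 in SNAI1_KO_2 in the first table, with 27.4, 19.9 and 19.4 in the second, a log2 difference of -0.44 ± 0.069 (adjusted p = 0.00811). RARA was lower as well (-0.32, adjusted p = 0.0347), with an adjusted p of 0.0842 in SNAI1_KO_1 alone and 0.0442 in SNAI1_KO_2 alone. RXRB, RXRG, PPARD and the carrier FABP5 did not pass. RARG took between 34.5% and 40.1% of the summed FPKM of the 6 RAR and RXR genes, with overlap between WT and the knockout groups. Of the 10 co-regulators of the receptors, TBL1XR1 and HDAC3 were lower and 8 did not pass.

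Among the pathway genes tested, those known to respond to retinoic acid held the largest difference in each direction. Outside the HOX genes, 3 of 13 such genes in both tables were tested. Of the rest, MEIS1, MEIS2 and TSHZ1 were lower in every knockout library than in WT, and RARRES1 and RARRES3 were higher, all named after their values were seen. TGM2, NR2F1, NR2F2 and TBX1 overlapped between WT and knockout libraries, and STRA8 was at 0 in all libraries. How many of all genes lack such overlap was not counted. MEIS2 was at 2.13 and 2.86 FPKM in WT and between 0.0838 and 0.369 in the knockout libraries. MEIS1, TSHZ1, RARRES1 and RARRES3 stayed below 1 FPKM, where read support is unknown. CDX1, a homeobox gene of the tail end of the embryo that Wnt signaling also induces, had 1.07 FPKM in WT against 22.03 in SNAI1_KO_1 and 21.0 in SNAI1_KO_2 in the first table, with 2.15, 19.7 and 24.9 in the second. All 4 knockout libraries were at least 9.18-fold above WT of their table, and the log2 difference was 3.16 ± 0.16 (adjusted p = 0.000324). None of 6 HOX genes listed reached the filter. HOXB5 was at 1.38 and 1.92 FPKM in WT and between 0 and 0.172 in the knockout libraries, while HOXA4, HOXA5, HOXB1, HOXB4 and HOXD4 were below 1 FPKM in all libraries. Of these, HOXB4 was at 0.386 and 0.269 in WT and between 0 and 0.0250 in the knockout libraries. HOXB1 was at 0.144 and 0.116 in WT and between 0 and 0.0870 in the knockout libraries, and HOXA4, HOXA5 and HOXD4 overlapped. RARRES2 was higher by 0.49 (adjusted p = 0.00373). FGF8, which retinoic acid is known to repress in the trunk, was lower, at 26.3 and 22.6 FPKM in WT and between 12.2 and 17.9 in the knockout libraries, a log2 difference of -0.69 ± 0.066 (adjusted p = 0.00178).

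**Figure D4:**
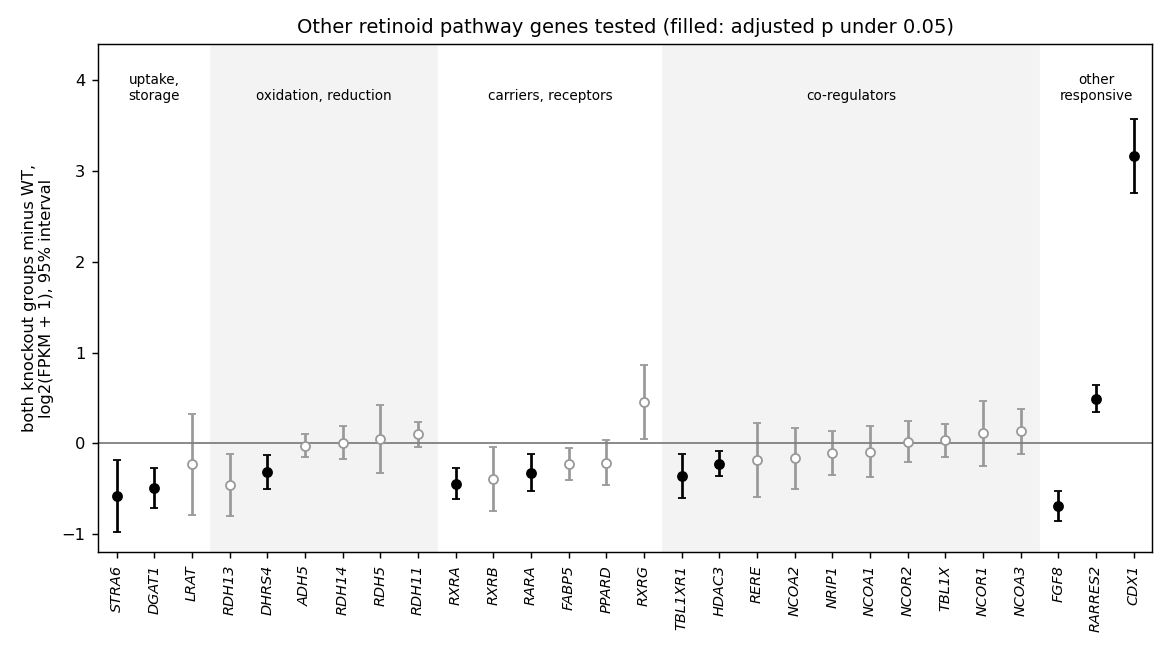
Limma estimate of the log2(FPKM + 1) difference of both knockout groups from WT, with its 95% interval, for the 28 other pathway genes tested, grouped by role. Filled points passed an adjusted p under 0.05, with CDX1 at 3.16 and FGF8 at -0.69 as the highest and the lowest estimates.

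The genes whose 4 differences from WT were most like those of DHRS3 and CRABP2, which had the highest and the lowest estimate of the 7 genes that averaged 1 FPKM or more, were looked for by the root mean square distance on the log2 scale. Those nearest to DHRS3 were IL32 (0.0563), ADAMTSL4 (0.0646) and FGF13-AS1 (0.125). The search covered genes that averaged 1 FPKM or more, which DHRS3 reached through the knockout libraries only, so the filter shaped this list in part. In WT of the first and second table, IL32 was at 0.450 and 0.914 FPKM and FGF13-AS1 at 1.08 and 0.317. ADAMTSL4 was at 1.34 and 1.59. Nearest to CRABP2 were MCF2L2 (0.0428), DIRAS1 (0.0475) and DNAJC17 (0.0585). These distances rest on 4 differences that share 2 WT libraries.

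Cell type markers moved with the same groups. In bulk RNA, fewer cells of a type and less RNA per cell cannot be told apart. The summed FPKM of the 10 mesoderm and primitive streak markers found was 1640 to 1710 in WT and 1110 to 1200 in the knockout libraries, with 7 lower and T (TBXT) alone higher. That of the 6 pluripotency markers was 631 to 740 in WT and 858 to 1170 in the knockout libraries, with 3 higher. POU5F1 made up most of this sum, at 485 and 630 FPKM in WT and between 677 and 1014 in the knockout libraries. SOX2, PRDM14 and ZFP42 overlapped between WT and knockout libraries and did not pass. For 10 markers of surface ectoderm, amnion and trophoblast, the sum was 632 to 705 in WT and 1850 to 2120 in the knockout libraries, with 4 of 6 tested higher, GATA3 lower, and VTCN1 and CGA below 1 FPKM in all libraries. The keratins KRT8 and KRT18 made up most of this sum, and the other 8 markers summed to 36.2 and 56.8 in WT and to 37.8, 37.8, 47.6 and 64.5 in the knockout libraries, which overlap. Of those 8, ISL1 and KRT7 were not tested and went opposite ways. ISL1 was at 1.82 and 1.04 FPKM in WT and between 0.187 and 0.597 in the knockout libraries. KRT7 was at 0.334 FPKM in both WT libraries and between 0.832 and 1.18 in the knockout libraries. Endoderm markers, mostly SOX17, summed to 81.7 to 286 in WT and 135 to 366 in the knockout libraries, with 2 of 5 higher and 2 lower. Neural markers summed to 81.2 to 96.0 in WT and 60.0 to 76.2 in the knockout libraries, mostly OTX2, which did not pass. SOX3 was higher, at 0.0677 and 0.221 FPKM in WT and between 2.29 and 9.67 in the knockout libraries. PAX6, which was not tested, was lower there, at 1.29 and 2.38 FPKM in WT and between 0.0242 and 0.184 in the knockout libraries. SOX1 and LHX2 were below 1 FPKM. Among the markers called higher, GABRP, FOXA1 and SOX3 reached the filter only through the knockout libraries. Without such genes, 3 of 5 tested markers of surface ectoderm, amnion and trophoblast were higher, and 1 of 4 endoderm markers. Over all genes tested, 15.8% were higher and 15.4% were lower. Of the 13031 genes that did not reach the filter through 1 side only, 1843 were higher and 2047 were lower. Blood and endothelial markers summed to at most 7.30 FPKM in any library, with PECAM1, SPN, PTPRC and GATA1 below 1. RUNX1 made up most of this sum, at 3.98 and 3.22 FPKM in WT and between 4.46 and 6.52 in the knockout libraries, and did not pass. CD34, which was not tested, was at 1.15 and 1.11 FPKM in WT and between 0.0423 and 0.201 in the knockout libraries. The part of these differences in those of the retinoic acid genes was not tested.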

How the data were processed

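RNA-seq libraries of H1 cells (3 groups, n = 2 each) were made with a TruSeq kit from 2 ug of total RNA. The authors deposited FPKM values per gene symbol in 2 tables with 38100 and 58324 gene rows, each with 1 library per group, and columns that name the group. The submitters' processing notes name BWA, Bowtie, RSEM and the build hg19, without versions. Which tool wrote the FPKM is not clear, and only the second table holds an inner heading line, so both may not come from the same steps. FPKM carries no read totals, so no counting intervals were made.

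Symbols with several rows in a table (94 and 340) were not used, which left 37803. Genes averaging 1 FPKM or more were fitted on log2(FPKM + 1) with limma (version 3.58.1, R 4.3.3), with group means, the table as a block and a mean-variance trend (residual degrees of freedom 2, prior 3.34). Two-sided p-values were adjusted over all genes tested (Benjamini-Hochberg). The block rests on the shared tables, since the differences between tables correlated between groups (r across genes 0.616, 0.666 and 0.676, where genes are not independent). The script was tested on simulated data.

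Genes and lists were chosen with earlier results of these data known. From the lists, 2 genes are not reported here and are left out of every count over them. All 10 genes are named, and of the other lists called genes that differed by 0.5 or more (log2), the HOX genes, and the 3 nearest patterns. Sequences are from RefSeq on GRCh38.p14, another build than that of the files. As alternatives, the block, the trend, the filter or any 1 library was dropped, the pseudocount was set to 0.1 or 10, the filter was raised to 5, and the libraries were scaled by quantiles or by median ratios. Those for the pathway counts, no filter with symbols at 0 in all libraries left out, and counts without DHRS3, were chosen after seeing the data.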

Additional observations from a re-analysis of the deposited data

How the results depend on the processing

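Of the 129 alternatives computed for the 10 genes, 102 kept the direction and the side of the threshold (or, for the genes not tested, stayed within the spread), 21 lost the call, 4 moved and 2 reversed. The replicate block is the deposited table, since the columns carry no replicate number, and counts of the 10 genes called include DHRS3, which reached the filter through the knockout libraries only. Without the block, the genes called numbered 2 in both knockout groups, 1 in SNAI1_KO_1 and 1 in SNAI1_KO_2, against 5, 4 and 4 with it. With DHRS3 left out, these counts were 1, 1 and 1 without the block, against 4, 3 and 3 with it. The block also moved the count over all genes from 4348 to 1065, of which 71.9% were higher against 50.6%, and left 1 pathway gene higher in place of 2 and 0 lower in place of 8. With no filter at all (37803 symbols, many at 0 in all libraries) the counts were 1, 0 and 0, 732 over all genes, and 0 pathway genes higher and 1 lower. CRABP1 then had an adjusted p of 0.0642, CRABP2 of 0.0717 and DHRS3 of 0.113. Leaving out the symbols at 0 in all libraries, a choice made after the first count had been seen, gave 4 genes in both knockout groups, 2 in SNAI1_KO_1 and 3 in SNAI1_KO_2, with 2139 over all genes and 5 pathway genes lower. DHRS3 then had an adjusted p of 0.0523, and CYP26B1, lower, one of 0.032. A mean FPKM of at least 5 left 3 of the genes called, and no mean-variance trend left 5 pathway genes lower.

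With 1 library left out, the genes called numbered 3 to 4 in both knockout groups, 2 to 4 in SNAI1_KO_1 and 2 to 3 in SNAI1_KO_2. Over all genes 1728 to 2840 were called, and 1 to 5 pathway genes were lower. These fits have fewer samples, and a group left with 1 library is assumed to vary like the others. The CYP26A1 difference ranged from -0.171 to 0.253 and reversed at -0.171 and -0.0889. ALDH1A3 lost its call under a pseudocount of 10 (adjusted p = 0.0539), quantile normalization (0.0533) and no trend (0.062). DHRS3 could not have entered the fits with a filter without being higher in the knockout libraries, so no p-value against WT from them is given for it. CYP26B1 moved from -0.858 to -2.08 with a pseudocount of 0.1 and to -0.133 with 10, since it is near the pseudocount in level, and ALDH1A2 and RARB moved to 0.502 and 0.373 with 0.1. Median-ratio scaling moved the median of all genes from -0.0501 to -0.0178 and changed no call among the 10. Where not stated, the cause was not tested. Genes near 0 FPKM have unknown read support.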
